A study of Mus musculus with 8 samples.

Results

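The genes described here are 9 genes of Paneth cells and of the antimicrobial defense of the gut epithelium. They are Lyz1, Lyz2, Ang4, Mmp7, Reg3b, Reg3g, Itln1, Pla2g2a and Defa24, and they were looked up by symbol among the 13420 genes of the read-count table. Of the 9 genes, 8 had an entry and Lyz2 had none, so Lyz2 is not analysed here. Reads of Lyz1, Ang4, Mmp7, Reg3g, Itln1 and Pla2g2a were frequent enough to be tested, which makes 6 of the 5264 genes that passed the filter on low counts. Reg3b and Defa24 did not pass this filter and are given by their reads.

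Small intestinal organoids were grown from WT mice (C57BL/6, transgene mTmG, cells marked by membrane-bound tdTomato) and from cancer mice (C57BL/6 (F6), Villin-CreERT2, with Apc fl/fl and Tr53 fl/R172H among their alleles, cells marked by Dendra2). The Villin promoter drives the recombinase in the intestinal epithelium, so the cancer cells are of epithelial origin, and all of them carry the same combination of alleles. Cells of both kinds were cultured alone (pure) or together (mixed, 2 WT cells to 1 cancer cell), and live single cells were sorted by color 3 days after mixing. Each of the 4 groups has 2 bulk libraries, which carry the codes in their labels. The codes A01 and A05 stand for pure WT cells, and mixed WT cells have A02 and A06. The pure cancer cells have A03 and A07, whereas A04 and A08 stand for the mixed ones.

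Paneth cells sit at the base of the small intestinal crypt, between the stem cells, and release granules of antimicrobial proteins into the crypt. They mature under Wnt signals and supply growth signals to the neighboring stem cells. Their granules hold lysozyme, alpha-defensins, angiogenin-family ribonucleases and a secreted phospholipase, and in the mouse the protease made from Mmp7 cuts the alpha-defensin precursors into their active form. Reg3 lectins are made by Paneth cells and enterocytes and bind bacteria, and intelectin is made by Paneth and goblet cells.

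Depth set how well these genes could be read. The libraries held between 73109 reads (A02, mixed WT) and 4733121 reads (A04, mixed cancer), a 64.7-fold range, and 26.1% of the tested genes had 0 reads in A02. Levels are given as normalized CPM, which are read counts scaled to a common library total, and a count of 0 in both libraries of a group allows up to 0.566 CPM in mixed cancer, 1.04 CPM in pure WT and, for pure cancer and mixed WT cells, 5.72 CPM and 5.80 CPM. These limits and all counting intervals cover counting error only, since reads include amplification copies. Of 13 epithelial markers such as Epcam, Cdh1 and Krt8, all were detected well enough to be tested, and their summed level was 9117 to 10183 CPM in pure WT and 4986 to 6764 CPM in pure cancer cells. Blood cell markers were nearly absent in WT cells. Ptprc had no entry, and Csf1r, Fcer1g and Coro1a had 0 reads in all 4 WT libraries. C1qa had 6 reads and Cd52 1 read in pure WT, and both had 0 reads in mixed WT cells. Cd68 had 2 reads in pure and 1 read in mixed WT cells, and Laptm5 had 0 reads and 1 read. The exception was Cd14 (77.0 CPM in pure WT), which other cells can also express.

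The DNA just before the start of 4 of these genes is printed because Mmp7 stood against Ang4, Lyz1 and Itln1 in the comparisons of cancer with WT cells given further on. Each sequence is the 250 bases before the start site on the gene's own strand, as listed by RefSeq for GRCm38.p6, where 7 of the 9 genes have such a sequence. The windows are chr9:7691840-7692089 on the plus strand for Mmp7, and on the minus strand chr14:51773591-51773840 for Ang4, chr10:117292869-117293118 for Lyz1 and chr1:171535295-171535544 for Itln1. Capitals mark matches on either strand to the TATA box (TATAAA), an AP-1 motif (TGANTCA), a STAT motif (TTCNNNGAA) or a TCF/LEF motif (ATCAAAG).
Mmp7: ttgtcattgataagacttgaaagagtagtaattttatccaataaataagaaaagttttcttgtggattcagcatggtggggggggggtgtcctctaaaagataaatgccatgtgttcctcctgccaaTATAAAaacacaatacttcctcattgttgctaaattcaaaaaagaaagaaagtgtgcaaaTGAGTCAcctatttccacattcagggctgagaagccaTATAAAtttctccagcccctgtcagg
Ang4: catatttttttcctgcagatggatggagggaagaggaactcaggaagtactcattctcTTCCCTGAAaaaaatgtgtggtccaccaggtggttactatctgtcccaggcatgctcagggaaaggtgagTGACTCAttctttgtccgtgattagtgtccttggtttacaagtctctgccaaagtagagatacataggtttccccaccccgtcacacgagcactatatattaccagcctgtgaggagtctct
Lyz1: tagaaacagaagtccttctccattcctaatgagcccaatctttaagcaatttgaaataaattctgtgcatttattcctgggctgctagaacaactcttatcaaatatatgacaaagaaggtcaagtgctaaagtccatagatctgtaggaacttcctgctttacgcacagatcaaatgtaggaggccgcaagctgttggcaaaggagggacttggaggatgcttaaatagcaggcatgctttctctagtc
Itln1: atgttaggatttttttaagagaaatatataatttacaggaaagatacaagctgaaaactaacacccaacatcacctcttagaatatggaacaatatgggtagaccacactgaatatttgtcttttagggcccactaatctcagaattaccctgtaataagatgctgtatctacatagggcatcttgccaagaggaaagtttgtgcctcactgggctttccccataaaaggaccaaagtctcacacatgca
The Mmp7 sequence held the TATA box letters at -26 and -123 and an AP-1 match, TGAGTCA, at -63, counted from the start site to the first base of the match. RefSeq lists a further start of Mmp7 at base 7692341, inside the gene, whose window is not printed and held a TCF/LEF match at -247. The Ang4 sequence held an AP-1 match at -122 and a STAT match at -192. The Lyz1 and Itln1 sequences held none of the 4 motifs. Among 32851 promoters of the same length, 12.4% hold the TATA box letters, 6.75% the AP-1 motif, 7.02% the STAT motif and 3.21% the TCF/LEF motif. A match describes the letters in the window and says nothing about binding. Over the whole window, 60.8% of the bases of Lyz1 matched those of its neighbor Lyz2 without gaps, against 22.4% for Lyz1 and Mmp7.

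In WT cells the transcript of Pla2g2a fell when cancer cells were present, and the other genes tested did not pass the threshold. That Pla2g2a is lower in mixed WT cells was known when these genes were chosen, so its call here is no independent support. The level of Pla2g2a in mixed WT cells was 16.1% of that in pure WT cells, that of Lyz1 was 26.0% and that of Itln1 was 37.3%. Ang4 stood at 57.7%, Mmp7 at 74.6% and Reg3g at 124% of the pure WT level. At an adjusted p of 0.05, 1 of these 6 genes was called lower and 0 were called higher, beside 0.095% of all tested genes called lower and 0.646% called higher (edgeR, Benjamini-Hochberg). The median log2 fold change was -1.06 over the 6 genes and -0.10 over all tested genes. Because the libraries are of bulk cells, fewer cells of a type and less RNA per cell cannot be told apart.

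Pla2g2a encodes a secreted phospholipase that attacks bacterial membranes, at chr4:138831857-138835186 on the plus strand of GRCm38. C57BL/6 mice are known to carry a Pla2g2a allele that yields no active enzyme, and the annotation lists the gene as a polymorphic pseudogene, so the values concern its RNA. It measured 482 CPM (527 reads) in A01 and 766 CPM (1362 reads) in A05 of pure WT, against 78.6 CPM (6 reads) in A02 and 122 CPM (54 reads) in A06 of mixed WT cells. Both mixed libraries lay below both pure libraries, with a mean of 624 ± 200 CPM for the pure and of 100.5 ± 30.9 CPM for the mixed libraries (SD, n = 2 each). The log2 fold change was -2.55 (SE 0.613), a 5.86-fold lower level, with an adjusted p of 0.0494 (edgeR) and a 95% interval of -3.82 to -1.29. The call rests on several libraries, as the adjusted p was 0.0697 without A02, 0.131 without A06 and 0.467 without A05. A stricter filter at a minimum count of 50 gave an adjusted p of 0.0510, and DESeq2 gave 0.00907.

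Lyz1 encodes the lysozyme of Paneth cell granules, which cuts bacterial cell walls, at chr10:117287797-117292868 on the minus strand. It measured 538 CPM (588 reads) in A01 and 1375 CPM (2447 reads) in A05, and 170 CPM (13 reads) in A02 and 326 CPM (144 reads) in A06. The groups did not overlap, although the 2 pure WT libraries differed 2.56-fold from each other. The log2 fold change was -1.88 (SE 0.544) with an edgeR adjusted p of 0.129. Lyz1 passed the threshold in a fit of only the 4 WT libraries, at an adjusted p of 0.00896, and 0.0961 was reached with DESeq2. In the last 500 bases of its transcript, 17.7% of the 50-base windows also occur in Lyz2, and the authors discarded reads that fit several places equally well.

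Itln1 encodes intelectin, a lectin that binds sugars of microbial surfaces, at chr1:171518122-171535294 on the minus strand. It measured 1168 CPM (1276 reads) in A01 and 2073 CPM (3689 reads) in A05, and 511 CPM (39 reads) in A02 and 698 CPM (308 reads) in A06. Again both mixed libraries were below both pure libraries. The log2 fold change was -1.41 (SE 0.473) with an edgeR adjusted p of 0.234, and 0.0439 with only the 4 WT libraries in the fit. With Lyz1 and Pla2g2a this makes 3 of the 6 tested genes whose mixed WT libraries both lay below the pure ones, a pattern found in 28.8% of all tested genes.

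**Figure D1:**
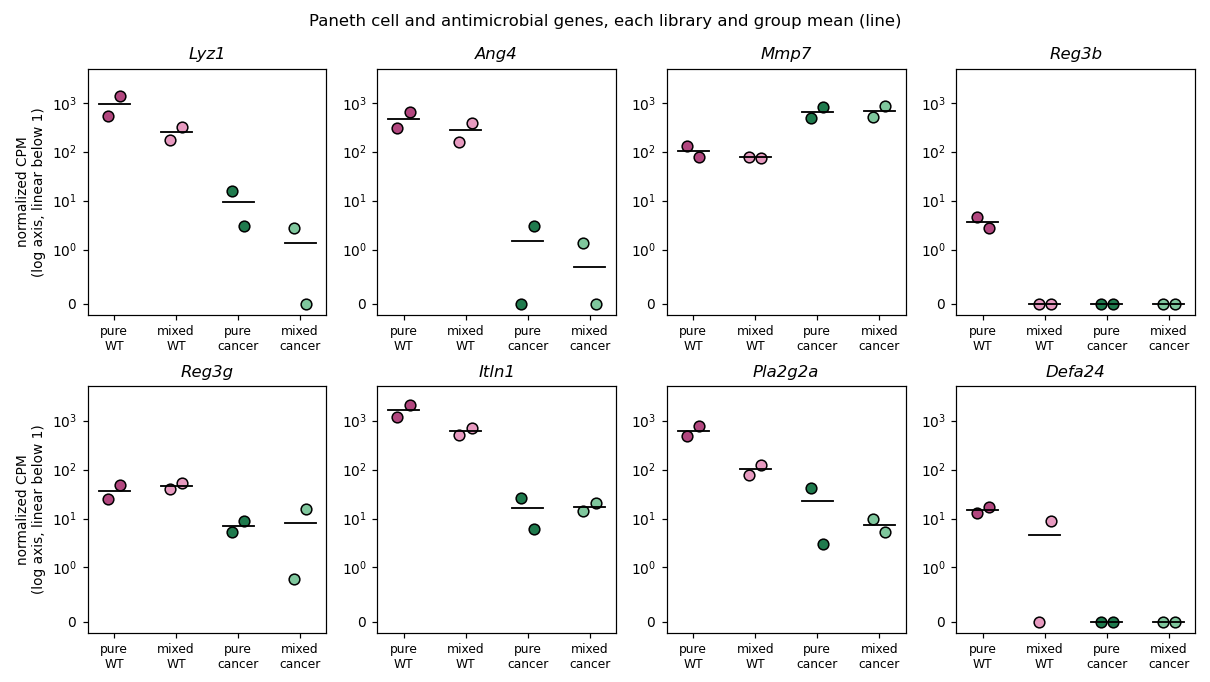
Level of each gene with an entry, in normalized CPM on a log axis that is linear below 1, for the 4 groups; each point is a library and each line the group mean. In mixed WT cells Pla2g2a, Lyz1 and Itln1 lie below pure WT cells, and Mmp7 alone is higher in cancer than in WT cells.

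Ang4, a microbicidal ribonuclease of the angiogenin family (chr14:51763878-51773590, minus strand), overlapped between the WT groups. It measured 308 CPM (336 reads) in A01 and 645 CPM (1147 reads) in A05, and 157 CPM (12 reads) in A02 and 392 CPM (173 reads) in A06. Its log2 fold change was -0.72 (SE 0.530, adjusted p = 0.739 in edgeR's test), with a 95% interval of -1.81 to 0.38. A fall as large as the one measured for Pla2g2a lies outside this interval, which does not by itself test the difference between the 2 genes.

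Mmp7, the protease that activates alpha-defensins (chr9:7692090-7699585, plus strand), was at 128 CPM (140 reads) and 77.6 CPM (138 reads) in pure WT and at 78.6 CPM (6 reads) and 74.8 CPM (33 reads) in mixed WT cells. The groups overlapped, and the log2 fold change was -0.43 (SE 0.530, adjusted p = 0.864 in edgeR's test). Reg3g, a lectin that kills Gram-positive bacteria (chr6:78466269-78468872, minus strand), was at 25.6 CPM (28 reads) and 48.3 CPM (86 reads) in pure WT and at 39.3 CPM (3 reads) and 52.1 CPM (23 reads) in mixed WT cells. It had the only positive value of the 6 genes, 0.36 (SE 0.897, adjusted p = 0.943 in edgeR's test), and its interval of -1.50 to 2.21 includes changes of several-fold in either direction.

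The proportions of these genes within a library were compared for 5 pairs of genes in the WT libraries. For every 100 reads of Ang4 there were 157 reads of Pla2g2a in A01 and 119 in A05 of pure WT, but 50 in A02 and 31.2 in A06 of mixed WT cells. For every 100 reads of Itln1 there were 41.3 and 36.9 reads of Pla2g2a in the pure libraries, but 15.4 and 17.5 in the mixed ones. Against 100 reads of Lyz1, Pla2g2a had 89.6 reads in A01 and 55.7 in A05, and 46.2 in A02 and 37.5 in A06. In this pair A05 of pure and A02 of mixed WT cells lay close together. Ang4 was the more frequent against Lyz1 after mixing, with 57.1 and 46.9 reads per 100 reads of Lyz1 in the pure and 92.3 and 120 in the mixed libraries. The reads of Itln1 per 100 reads of Lyz1 overlapped, with 217 and 151 in the pure and 300 and 214 in the mixed libraries. These ratios do not depend on the scaling between libraries, but those of A02 rest on 6 to 39 reads a gene, and they were not tested.

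Defa24 and Reg3b were seen almost solely in pure WT cells. Defa24, an alpha-defensin (chr8:21734494-21735471, plus strand), had 14 and 30 reads in pure WT, 0 and 4 reads in mixed WT, and 0 reads in all 4 cancer libraries. Over the pooled libraries its level in pure WT was 1.98 times that in mixed WT cells, with a 95% counting interval of 0.722 to 7.60, so no difference was detectable at this depth. Reg3b, a lectin active against Gram-negative bacteria (chr6:78370657-78373466, plus strand), had 5 reads in each pure WT library and 0 reads in the 6 others. Its level of 3.48 CPM over both pure WT libraries lies under what a count of 0 allows in mixed WT and pure cancer cells, so no fold is given. Summed over the 10 alpha-defensin genes with an entry, Defa24 included, the pure WT libraries had 47 and 92 reads and the mixed WT libraries 1 and 8, against 0 and 0 in pure and 1 and 0 in mixed cancer cells. Scaled for depth, these sums were 43.0 and 51.7 CPM in pure WT, and the mixed WT libraries had 13.1 and 18.1 CPM. Defa26 (50 reads) and Defa24 (44 reads) gave most of the pure WT reads. Of the 50-base windows at the 3′ end of Defa24, 28.1% are shared with other alpha-defensin genes. Reads that fit several places equally well were discarded by the authors, so its count may miss such reads.

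The wider list of 25 Paneth granule genes, written by hand without the 9 genes above, had 16 genes with an entry and 2 that were tested, Rnase1 and Clps. Rnase1, a secreted ribonuclease, fell in mixed WT cells, from 313 reads in pure WT to 0 reads, an at least 18.8-fold lower level against the floor of both mixed libraries (adjusted p = 0.0294 in edgeR's test). The call was lost without A05 (edgeR adjusted p = 0.883) and without A06 (0.250), and DESeq2 gave Rnase1 no adjusted p. Clps, the colipase that helps digest fat, numbered 556 reads in pure but 31 in mixed WT cells and did not pass the threshold (log2 fold change -1.75, SE 0.658, adjusted p = 0.330 in edgeR's test). The summed level of the 16 genes was 274 to 467 CPM in pure WT and 65.5 to 104 CPM in mixed WT cells. Clps and Rnase1 gave most of the 1130 pure WT reads of this list. The list was written with earlier results of these data known, so its lower sum is no independent support for a fall of Paneth granule genes. Pnliprp2 was at 15.9 CPM in pure and 16.7 CPM in mixed WT cells, and Defa20 at 3.24 and 6.55 CPM (1 read in mixed WT). The mean CPM of all other genes with an entry was lower in mixed WT cells, most of them with few reads.

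Markers of other epithelial cells were set beside these values. The summed levels overlapped between pure and mixed WT cells for goblet cells (3030 to 3161 against 2818 to 3761 CPM), for enteroendocrine cells (483 to 1113 against 657 to 839 CPM) and for enterocytes (1783 to 1936 against 1609 to 1888 CPM). Stem cell markers did not overlap, at 567 to 804 CPM in pure WT and 317 to 367 CPM in mixed WT cells. Of the tested genes, 0 of 7 goblet, 0 of 8 enteroendocrine, 0 of 7 enterocyte and 0 of 7 stem cell markers were called between the WT groups by edgeR. Of the 7 stem cell values 5 were negative and 2 positive. Axin2 was at 115 CPM in pure and 10.2 CPM in mixed WT cells, and Ascl2 at 139 and 34.6 CPM. Both passed the threshold with barcode and transcript counts, but not with DESeq2. Axin2 also passed with no filter and in a fit of only the 4 WT libraries. Whether the makeup of the WT cells had a part in the fall of Pla2g2a was not tested.

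**Figure D2:**
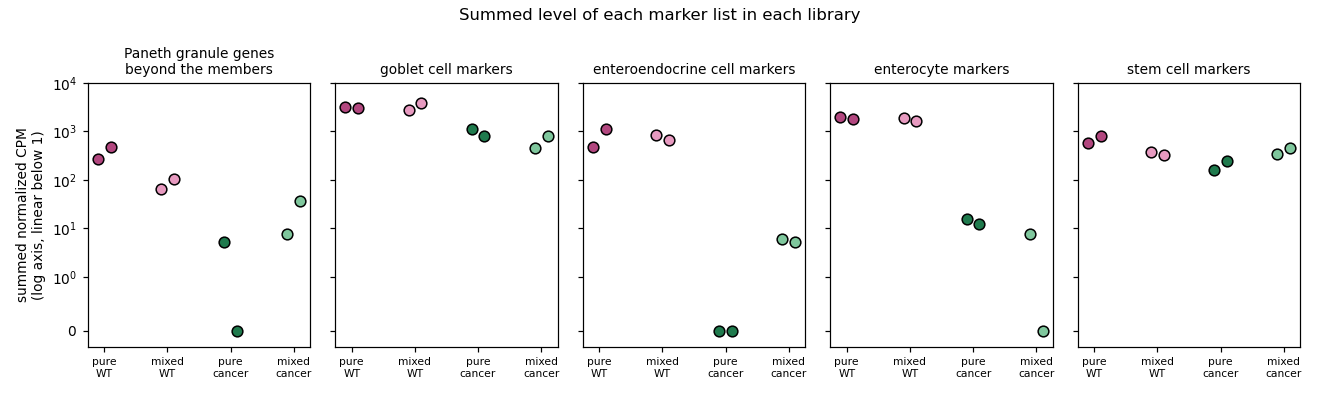
Summed normalized CPM of 5 marker lists in each library, on a log axis that is linear below 1; each point is a library. The Paneth granule list is lower in mixed WT (65.5 to 104 CPM) than in pure WT cells (274 to 467 CPM). Clps and Rnase1 gave most of its pure WT reads. The list was written with earlier results of these data known, so its sum is no independent support. Goblet, enteroendocrine and enterocyte sums overlap between the WT groups.

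Of 10 tested genes of a list of other epithelial antimicrobial genes, 1 was called between the WT groups (edgeR), and it was higher. Lypd8, which keeps flagellated bacteria off the epithelium, rose in mixed WT cells from 1347 ± 559 CPM to 6129 ± 2364 CPM (SD, n = 2 each). Its log2 fold change was 2.19 (SE 0.447, adjusted p = 0.0199 in edgeR's test). It was called with DESeq2 too (adjusted p = 0.000603), but not with barcode counts (edgeR adjusted p = 0.213), without A05 (0.279) or without A06 (0.178). Reg1, a secreted lectin, had 713 reads in pure WT and 5 reads in mixed WT cells but did not pass the threshold (log2 fold change -4.10, SE 1.00, adjusted p = 0.0606 in edgeR's test), although it did in a fit of only the 4 WT libraries (edgeR adjusted p = 0.000531). Among the 10 genes 6 values were negative and 3 positive. Among regulators and niche signals of Paneth cells, 0 of 10 tested genes were called. Of their values 7 were negative and 3 positive, with a median log2 fold change of -0.23. Sox9, a transcription factor that Paneth cells need, was at 110 CPM in pure and 47.1 CPM in mixed WT cells. Nupr1 went the other way, at 9.88 and 91.6 CPM, as did Agr2, at 251 and 315 CPM. Nupr1 passed the threshold with DESeq2, with no filter and in a fit of only the 4 WT libraries. Of 7 tested genes of the IL-22 and STAT3 pathway, which drives Reg3 genes in epithelium, 0 were called in any comparison of groups by edgeR.

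**Figure D3:**
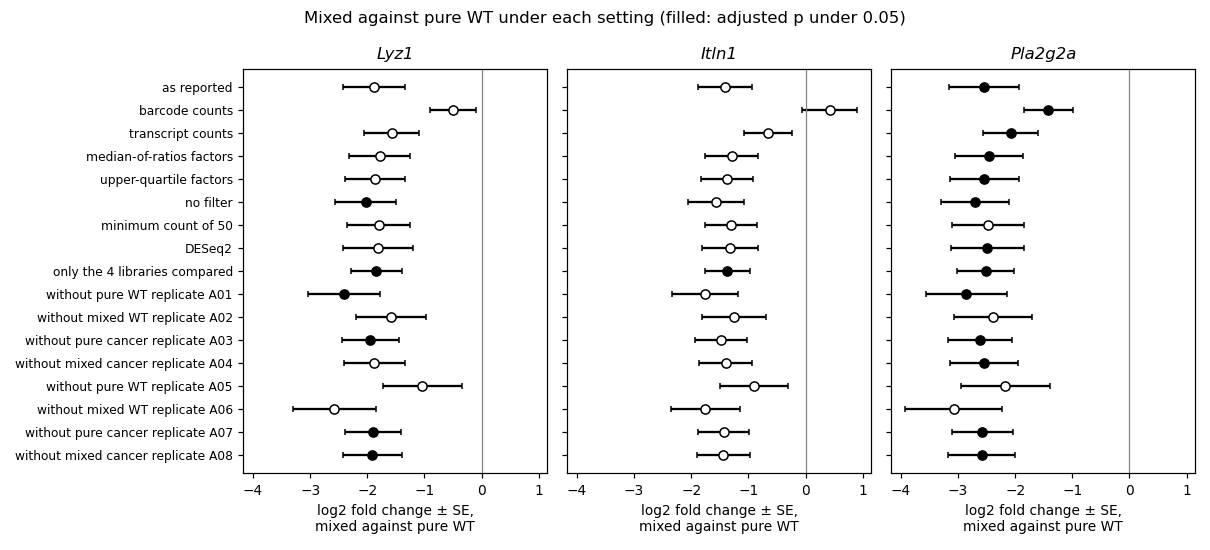
Log2 fold change with its standard error between mixed and pure WT cells for Lyz1, Itln1 and Pla2g2a, as reported and under 16 other settings; filled points passed an adjusted p of 0.05. Pla2g2a stays negative under each setting and passes under 12 of the 16.

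In cancer cells none of the 6 tested genes was called between mixed and pure cultures, as was true of all genes, where 0% were called higher and 0% lower by edgeR. At an unadjusted p of 0.05, 0 of the 6 genes and 69 of all tested genes passed, and DESeq2 called 0 genes after adjustment. The values differed in how much they can say. Mmp7 had many reads, at 478 CPM (91 reads) and 829 CPM (277 reads) in pure and 523 CPM (2674 reads) and 861 CPM (166 reads) in mixed cancer cells, so its interval was narrow, from -0.89 to 1.02 around a log2 fold change of 0.07. Itln1 had 5 and 2 reads in pure and 73 and 4 reads in mixed cancer cells, with a log2 fold change of 0.15 and an interval of -1.39 to 1.69. For Ang4, with 1 read in pure and 7 reads in mixed cancer cells, the interval ran from -3.92 to 2.89, so large changes in either direction were not detectable.

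The change on mixing was not shown to differ between WT and cancer cells for any of these genes. Of the 6 tested genes, 0 were called for the difference of the changes, beside 0.076% of all tested genes (edgeR). For Pla2g2a the difference was -1.48 on the log2 scale (SE 1.01, adjusted p = 0.815 in edgeR's test) and for Itln1 it was -1.56 (SE 0.867, adjusted p = 0.758 in edgeR's test). At an unadjusted p of 0.05, 0 of the 6 genes passed as well.

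Pure cancer cells differed from pure WT cells in 5 of the 6 tested genes. Ang4, Lyz1, Itln1 and Pla2g2a were lower and Mmp7 was higher, beside 4.84% of all tested genes called lower and 5.11% called higher (edgeR, Benjamini-Hochberg). The cancer and WT cells come from separate organoid lines, so line and genotype cannot be told apart.

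Itln1 was at 26.2 CPM (5 reads) and 5.99 CPM (2 reads) in the pure cancer libraries, and its log2 fold change was -6.83 (SE 0.665, adjusted p = 2.32e-07 in edgeR's test). Lyz1 was at 15.7 CPM (3 reads) and 2.99 CPM (1 read), with a log2 fold change of -6.89 (SE 0.783, adjusted p = 2.20e-06 in edgeR's test). Pla2g2a was at 42.0 CPM (8 reads) and 2.99 CPM (1 read), with a log2 fold change of -5.03 (SE 0.732, adjusted p = 4.64e-05 in edgeR's test). In each of these genes the higher cancer library stayed below the lower WT library, and in each the higher value was that of A03. Such a lack of overlap, with cancer below WT, was found in 29.4% of all tested genes.

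Ang4 had 0 reads and 1 read in the pure cancer libraries. The pooled level in pure WT cells was 271 times that in pure cancer cells, with a 95% counting interval of 48.6 to 10708, and the adjusted p was 3.81e-06 in edgeR's test. Reg3g was at 5.25 CPM (1 read) and 8.98 CPM (3 reads) and did not pass the threshold (log2 fold change -2.30, SE 1.11, adjusted p = 0.241 in edgeR's test), although the groups did not overlap. Defa24, with 44 reads in pure WT and 0 reads in pure cancer cells, was not tested, and the exact 95% counting interval of the pure WT level over the pure cancer level started at 2.09.

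Mmp7 was the gene that went the other way. It measured 103 ± 35.8 CPM in pure WT and 653 ± 249 CPM in pure cancer cells (SD, n = 2 each), which is 635% of the WT level. Both cancer libraries lay above both WT libraries, a pattern found in 23.2% of all tested genes. The log2 fold change was 2.68 (SE 0.490, adjusted p = 0.000595 in edgeR's test), a 6.39-fold higher level. It remained called under all 16 other settings, with values from 2.12 to 3.03.

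The same comparison among cells of mixed cultures called all 6 tested genes, 5 lower and 1 higher, beside 4.41% of all tested genes called lower and 2.01% called higher (edgeR, Benjamini-Hochberg). Mmp7 had a log2 fold change of 3.17 (SE 0.547, adjusted p = 0.000362 in edgeR's test), from 76.7 ± 2.75 CPM in mixed WT to 692 ± 239 CPM in mixed cancer cells (SD, n = 2 each). Pla2g2a was at 9.78 CPM (50 reads) and 5.19 CPM (1 read) in mixed cancer cells and differed by -3.55 (SE 0.724, adjusted p = 0.00218 in edgeR's test). Without mixed WT library A06 this adjusted p was 0.0874.

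Lyz1 had 14 reads in A04 and 0 reads in A08, and Ang4 had 7 reads and 0 reads. Their log2 fold changes between mixed cancer and mixed WT cells were -6.63 (SE 0.786, adjusted p = 3.45e-06 in edgeR's test) and -7.70 (SE 0.844, adjusted p = 1.10e-06 in edgeR's test). Itln1 was at 14.3 CPM (73 reads) and 20.7 CPM (4 reads), with a log2 fold change of -5.27 (SE 0.605, adjusted p = 2.07e-06 in edgeR's test). Defa24 had 4 reads in mixed WT and 0 reads in mixed cancer cells, and this 0 rests on A04, since 0 reads in A08 alone would allow up to 15.6 CPM.

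Reg3g passed the threshold in this comparison, with a log2 fold change of -4.25 (SE 1.28, adjusted p = 0.0468 in edgeR's test), but its value leans on the deepest library. It was at 0.783 CPM (4 reads) in A04 and 15.6 CPM (3 reads) in A08. Both values lay below both mixed WT libraries, a pattern found in 18.4% of all tested genes. Without A04 the log2 fold change was -1.63 and the adjusted p 0.628, and the call was also lost without A01, A05 or A06, with DESeq2 and with only the 4 libraries compared in the fit.

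**Figure D4:**
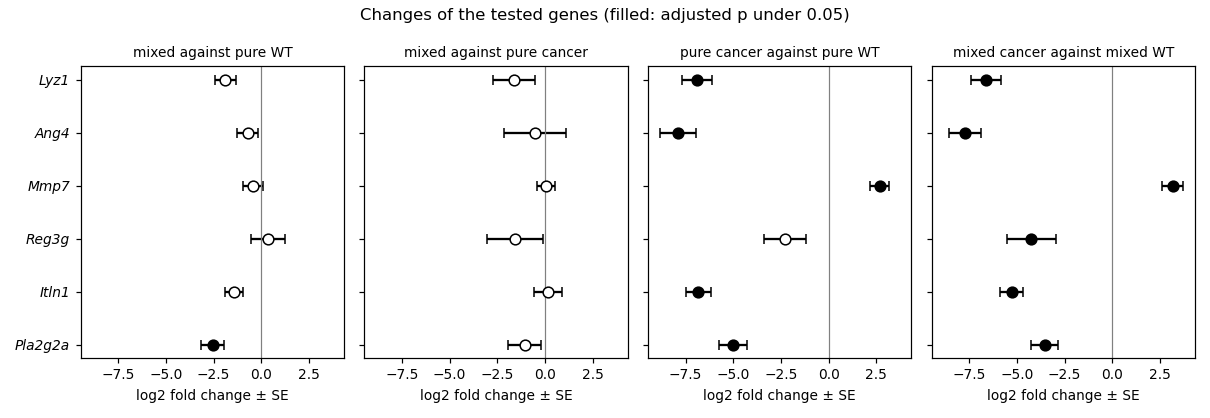
Log2 fold change with its standard error for the 6 tested genes in 4 comparisons; filled points passed an adjusted p of 0.05 (edgeR). Mmp7 is positive and Lyz1, Ang4, Itln1 and Pla2g2a are negative wherever cancer is set against WT cells, and Pla2g2a is the filled point between the WT groups.

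The low level of these genes in cancer cells went along with low levels of enterocyte, enteroendocrine and goblet cell markers, but not of tuft cell markers. Of the tested markers, 7 of 7 for enterocytes, 8 of 8 for enteroendocrine cells and 6 of 7 for goblet cells were lower in pure cancer than in pure WT cells (edgeR). The summed enteroendocrine markers were at 483 to 1113 CPM in pure WT cells and at 0 CPM in both pure cancer libraries. The summed tuft cell markers were at 15.6 to 16.9 CPM in pure WT and 52.5 to 114 CPM in pure cancer cells, and Avil, the 1 tested gene of that list, was higher in pure cancer cells (log2 fold change 4.07, SE 0.818, adjusted p = 0.00156 in edgeR's test). Of the Paneth cell regulators, Agr2, a chaperone of secretory cells, and Atoh1, the factor that sets the secretory fate, were lower, and the stress-response gene Nupr1 was higher (log2 fold change 4.05, SE 0.729, adjusted p = 0.000502 in edgeR's test). Atoh1 had 85 reads in pure WT and 0 in pure cancer cells, which is at least 5.18-fold lower, and Sox9, with 110 CPM and 79.3 CPM, did not pass the threshold.

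Among the other antimicrobial genes, 5 of 10 tested were lower and 2 were higher in pure cancer than in pure WT cells (edgeR). Lypd8 was at 7.11 CPM and Reg4, a secreted lectin, at 1.50 CPM in pure cancer cells, against 1347 CPM and 319 CPM in pure WT cells. Zg16, a goblet cell lectin, Reg1 and Pigr, which carries antibodies across the epithelium, had 0 reads in pure cancer cells. Lcn2, which binds bacterial iron carriers, stood with Mmp7, at 0 reads in pure WT and 23 reads in pure cancer cells, an at least 42.0-fold higher level (adjusted p = 0.00168 in edgeR's test). Ltf, the iron-binding lactoferrin, had 1 read in pure WT and 14 reads in pure cancer cells (adjusted p = 0.0119 in edgeR's test). The cancer cells had been sorted on Dendra2. Of the 2 immune markers tested, Cd68 was higher in pure cancer than in pure WT cells, and Cd14 was not called. Cd68 was at 34.4 ± 48.7 CPM in pure cancer cells (SD, n = 2), with a log2 fold change of 5.52 (SE 1.46, adjusted p = 0.0154 in edgeR's test). Cd14 was higher in mixed cancer than in mixed WT cells (log2 fold change 2.81, SE 0.696, adjusted p = 0.0125 in edgeR's test). Whether immune cells had a part in the levels of Lcn2, Ltf and Mmp7 was not tested. The 9 immune markers with an entry had 183 reads in pure cancer cells. Of these reads, 157 were of Cd14 and 23 of Cd68, which epithelial cells can also express. Cx3cr1 had 2 reads and Csf1r 1 read, and Fcer1g, Coro1a, Laptm5, Cd52 and C1qa had 0 reads. The summed level of these markers was 53.1 to 108 CPM in pure WT and 121 to 479 CPM in pure cancer cells.

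For each tested gene, the genes with the most similar pattern over the 8 libraries were sought by Euclidean distance of centered log2 CPM, among genes that averaged 50 reads or more in a library. The closest to Lyz1 were Aldh1b1 (distance 2.10) and Tm4sf5 (2.48), and Gstt2 (1.68) was among the closest to Ang4. Itln1 lay nearest to Clps (1.52) and Smoc2 (1.55), a stem cell marker. Mmp7 lay nearest to Phc2 (1.09) and Tead2 (1.31), and Reg3g to Calml4 (1.41) and Mgst1 (1.74). Pla2g2a had no close partner, since its nearest genes, Ckb (2.85) and Itln1 (2.88), were farther away than the nearest genes of the other 5. The distance of Lyz1 to Ang4 was 3.06 and that of Lyz1 to Mmp7 was 13.7.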

How the data were processed

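Bulk CEL-Seq, a method that sequences transcript 3′ ends, was done on 8 sorted libraries, 2 in each of 4 groups. According to the methods and the submitters' processing notes, BWA placed the reads on the RefSeq transcriptome of mm10, reads that fit several places equally well were discarded, and featureCounts assigned the rest to genes. The authors deposited gene-level read counts, barcode counts (different molecule barcodes, at most 256 per gene) and estimated counts of transcripts, all without normalization. A table of the authors' DESeq2 1.22.2 comparison of mixed and pure WT cells (means, fold changes, statistics, p-values) was not used. The depth was 73109 to 4733121 reads per library, and 2 rows that are not mouse genes, with 1 read in all, were left out.

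Read counts were tested with edgeR 4.0.16 in R 4.3.3 (filterByExpr at a minimum count of 10, TMM, a quasi-likelihood fit of all 8 libraries, Benjamini-Hochberg over 5264 genes, called at an adjusted p under 0.05). Standard errors were taken as the size of the log2 fold change over the square root of F. The floor of a group is 3 reads over its pooled libraries. Counting intervals are exact (Clopper-Pearson) at 95%. A label names no culture or animal, so the p-values measure the spread between these libraries, which may be technical, and libraries were not paired. The script was tested on simulated data. Alternatives were the other count tables (transcript counts rounded), other scaling factors, other filters, DESeq2 1.42.0, a fit of the 4 libraries compared and each library left out. Positions and shared windows came from GENCODE vM21 (GRCm38).

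The 9 genes and the 11 hand-written lists were chosen with earlier results of these data known. These results included the lower level of Pla2g2a in mixed WT cells. Named besides the 9 genes were called genes of these lists (up to 4 per list and comparison with the largest changes), defining markers by level, and the 2 nearest genes of each tested gene. Some genes were named after their values were seen where this rule does not name them. These were Rnase1, Clps, Pnliprp2, Defa20, Lypd8, Reg1, Sox9, Nupr1, Agr2, Axin2 and Ascl2 in the WT comparison, and Reg4, Ltf and Defa26. A further allele of the cancer cells and a gene close to Ang4 are not reported here.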

Additional observations from a re-analysis of the deposited data

How the results depend on the processing

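Of the 9 genes, the number called between mixed and pure WT cells was the result that moved. It was 1 as reported (Pla2g2a), 2 with no filter (with Lyz1), 0 at a minimum count of 50, 3 with only the 4 libraries compared (with Lyz1 and Itln1), and 0 to 2 with each library left out. All genes called in this comparison numbered 34 higher and 5 lower as reported, 2 higher and 0 lower without A06, and 92 higher and 26 lower without A07. The counts for pure cancer against pure WT cells (5 under every setting), mixed cancer against mixed WT cells (4 to 6), mixed against pure cancer cells (0) and the difference of the changes (0) stayed within 1.5 times their reported value. Between mixed and pure WT cells, all genes called numbered 52 higher and 16 lower with no filter. They numbered 35 higher and 4 lower at a minimum count of 50, and 85 higher and 23 lower with only the 4 libraries compared. A fit without 1 library leaves its group with 1 sample, which is assumed to vary like the others. No paired analysis was possible because the labels give the groups no shared replicate number.

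The wider lists, Lypd8, Rnase1 and Reg1 were put through the same settings after the data were seen. For the wider lists, the genes called between mixed and pure WT cells numbered 2 as reported, 6 with barcode counts, 5 with transcript counts, no filter or only the 4 libraries, 1 at a minimum count of 50, and 0 to 6 with each library left out. At a minimum count of 50 they numbered 21 in pure and 21 in mixed cancer against WT cells, where 39 and 34 were reported, and 20 to 41 in mixed cells with each library left out, the lowest without A04. For the difference of the changes they numbered 0 as reported, 2 with barcode counts, 1 with transcript counts, no filter or DESeq2, and 0 to 1 with each library left out.

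Values that changed sign were not called under either setting. With barcode counts, between mixed and pure WT cells Ang4 was 0.0043 and Itln1 0.42 (log2), where A01 and A05 held 226 and 251 of 256 possible Itln1 barcodes. Mmp7 between mixed and pure cancer cells was -0.41 with barcode and -0.17 with transcript counts. The difference of the changes was 0.14 for Ang4, 0.42 for Lyz1 and 0.045 for Mmp7 with barcode counts, and 0.23 for Ang4 with transcript counts. With each library left out, Reg3g between WT groups ran from -0.030 to 0.90. Between cancer groups Ang4 ran from -3.27 to 3.82, Itln1 from -0.66 to 1.38, Mmp7 from -0.28 to 0.57, Pla2g2a from -2.11 to 1.58 and Reg3g from -3.04 to 1.05. The difference of the changes ran from -4.55 to 2.56 for Ang4, from -1.73 to 3.35 for Lyz1 and from -0.69 to 3.37 for Reg3g. Apart from the barcode values, the cause of these shifts was not tested.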
